A study of Mus musculus with 4 samples.

Results

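Amino acid transporters are membrane proteins that carry amino acids across the plasma membrane, and 10 of their genes are described here in colon epithelial cells of mice with and without epithelial Ezh2. The 10 genes are Slc7a5, Slc7a11, Slc3a2, Slc3a1, Slc7a1, Slc7a8, Slc1a5, Slc6a14, Slc38a2 and Slc38a1. They were chosen by name, without use of a measured value in the rule, but with earlier results of these data known. All 10 were found by Entrez identifier among the 18872 genes listed in the deposited tables, and all 10 had enough counts to be tested. The RNA came from epithelial cells isolated from the colons of mice on 3 days of 2% DSS (dextran sulfate sodium), a chemical that damages the gut lining and sets off colitis. Mice of genotype EZH2-IEC-/- (knockout, KO), which by that label lack the gene-silencing histone methyltransferase Ezh2 in intestinal epithelial cells, gave 2 libraries. Wild-type mice (WT), given DSS in the same way, gave the other 2 libraries. Each value is therefore a difference between genotypes under DSS, and untreated mice were not analysed here. The Cre driver, strain, age and sex are not given in the sources used here, nor whether each library is a mouse of its own. The p-values therefore rest on a spread between libraries that may be technical.

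Library totals, in estimated counts, were 5399949 and 5446998 in KO and 5037367 and 5236519 in WT. Ezh2 itself had 86 and 83 counts in KO and 105 and 102 counts in WT, a log2 fold change of -0.27 ± 0.17 (standard error) that did not pass (adjusted p = 0.217) and, as a sum over the transcript, would not reveal the loss of an exon. Marker counts below are of genes past an adjusted p of 0.05 in edgeR's test. Over all genes tested 43.7% were past it, 23.0% higher and 20.8% lower in KO. Of 12 epithelial markers, 8 were higher and 4 lower in KO, and their summed level was 11461 and 11887 FPKM (reads relative to transcript length and sequencing depth) in KO and 10709 and 10990 FPKM in WT. Of 14 tested T and NK cell markers 12 were higher and 0 lower, with summed levels of 105.0 and 105.9 FPKM in KO and 30.9 and 31.0 FPKM in WT. Of 12 macrophage and dendritic cell markers 9 were higher and 0 lower, with sums of 521 and 582 FPKM in KO and 369 and 390 FPKM in WT. Of 12 fibroblast and smooth muscle markers 1 was higher and 10 lower, with sums of 1293 and 1643 FPKM in KO and 2717 and 2941 FPKM in WT. Of the B and plasma cell markers 2 were higher and 4 lower of 8 tested, of neutrophil markers 3 and 0 of 5, of endothelial markers 0 and 5 of 8, and of erythroid markers 0 and 3 of 3. Among the neutrophil markers, Ly6g had 0 and 1015 counts in KO and 0 and 1137 counts in WT and was not called. It was not listed with the same transcripts in all files. Retnlg, a neutrophil gene, had 3 and 3 counts in KO and 0 in both WT libraries and was not tested. Hba-a2 and Hbb-bt were at 0 in both KO libraries. In WT, Hba-a2 had 106 and 119 counts, while Hbb-bt had 0 and 8 counts and was not tested. For Retnlg, Hba-a2 and Hbb-bt the listed transcripts differed between files or a file lacked the gene. The part of this in their counts was not tested. In such bulk samples, fewer cells of a type and less RNA per cell cannot be told apart.

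The genes fall into 3 kinds of carrier. The heteromeric carriers pair a heavy chain, Slc3a2 (also called 4F2hc or CD98) or Slc3a1 (rBAT), which brings the complex to the membrane, with a light chain of the Slc7 family, which moves the amino acid. Sodium-coupled carriers, here Slc1a5, Slc6a14, Slc38a1 and Slc38a2, use the sodium gradient to bring neutral or cationic amino acids into the cell. Slc7a1 carries cationic amino acids without a heavy chain. Several of these genes belong to the amino acid response, in which the transcription factor ATF4 binds a short promoter element and raises genes of amino acid uptake and synthesis when amino acids are scarce or the endoplasmic reticulum is under stress. Colon epithelium takes up cystine for glutathione synthesis and uses glutamine as a fuel.

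The promoter of Slc7a11 is shown because it was the only member promoter among those with a sequence that held the core of this element, TGATGNAA (N is any base), and it held it in 2 places. A window of 300 bases, from 250 bases before to 50 bases after the annotated start, was searched on both strands in the RefSeq promoter table (GRCm38.p6), which held 7 of the 10 members in 8 windows and had no entry for Slc7a5, Slc1a5 and Slc38a1. Sequences run 5′ to 3′ on the gene's strand, and capitals mark the matches. Stretches of 60 bases around the match in Asns and Chac1, genes of the amino acid response described below, are set beside it.
Slc7a11 (chr3:50443564-50443863, minus strand): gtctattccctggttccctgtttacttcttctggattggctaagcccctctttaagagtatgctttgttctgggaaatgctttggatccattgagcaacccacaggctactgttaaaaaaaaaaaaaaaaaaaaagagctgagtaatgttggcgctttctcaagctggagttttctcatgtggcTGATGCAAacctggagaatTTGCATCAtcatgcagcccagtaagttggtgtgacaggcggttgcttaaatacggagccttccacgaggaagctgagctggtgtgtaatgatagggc
Asns (chr6:7693199-7693258, minus strand): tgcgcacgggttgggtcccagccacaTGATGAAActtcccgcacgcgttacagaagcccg
Chac1 (chr2:119351023-119351082, plus strand): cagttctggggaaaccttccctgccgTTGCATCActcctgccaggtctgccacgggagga
The matches in Slc7a11 begin 66 and 47 bases before the start and lie on opposite strands, 11 bases apart. The core occurred in 3.97% of 32851 promoter windows of all genes, and 0.07% of windows held it 2 or more times. By gene, 4.51% of 27025 genes held it in any window. Among 30 genes of the amino acid response list with a window, 9 held it. They were Atf3, Trib3, Chac1, Nupr1, Asns, Pycr1, Pck2, Vldlr and Fgf21. Of these, Atf3, Chac1, Nupr1 and Asns were called higher in KO, Pck2 was called lower, and Pycr1 and Vldlr were not called. Trib3 was not tested, and Fgf21 was not listed in the files. A second core, TGACNNNGC, which antioxidant response elements contain, occurred in 12.4% of all windows and 14.0% of genes. Among the members it occurred in the window of Slc38a2 and in 1 of the 2 windows of Slc7a1. The 2 cores were searched as written, are never a match to each other, and a match describes letters only.

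**Figure D1:**
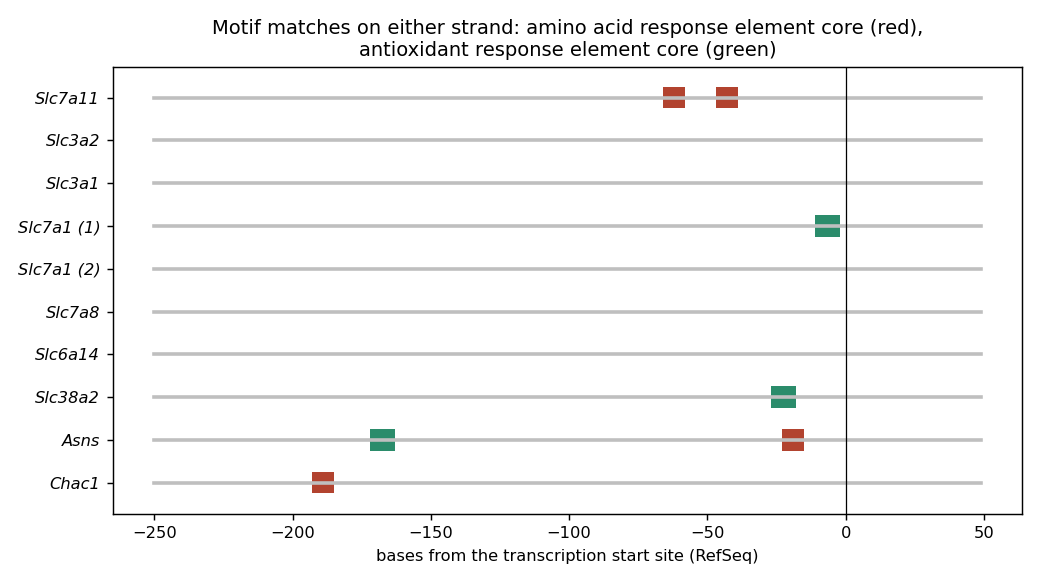
Positions of matches to 2 motif cores, on either strand, in promoter windows of 7 members and of Asns and Chac1. The horizontal axis gives bases from the annotated start, grey lines are the windows, red boxes are TGATGNAA and green boxes TGACNNNGC. Slc7a11 holds the red core at 66 and 47 bases before the start, and no other member window holds it.

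Of the 10 members, 5 were higher and 3 lower in KO (edgeR's quasi-likelihood test, Benjamini-Hochberg adjusted p under 0.05 over 13608 genes), and 2 were not called. Over all genes tested, 43.7% were called, 23.0% higher and 20.8% lower, so a large share of calls in either direction was the background in these libraries. The balance turned with the scaling, with 2555 genes called higher and 3465 lower under library totals alone, and 1958 higher and 3403 lower in limma on FPKM rescaled to equal totals. The groups did not overlap for 8 of the 10 members, against 73.2% of all genes. The median log2 fold change of the members was 0.16, against -0.002 over all genes, and its sign turned with rescaled totals (-0.024, against -0.144 over all genes). The median size of change without regard to sign was 0.75 on the log2 scale, against 0.42 over all genes. Members and gene lists were chosen with earlier results of these data known, so their differences from all genes were not tested. Called higher were Slc7a5, Slc7a11, Slc3a1, Slc7a1 and Slc38a2, and called lower were Slc1a5, Slc6a14 and Slc38a1, so the sodium-coupled carriers went in both directions.

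**Figure D2:**
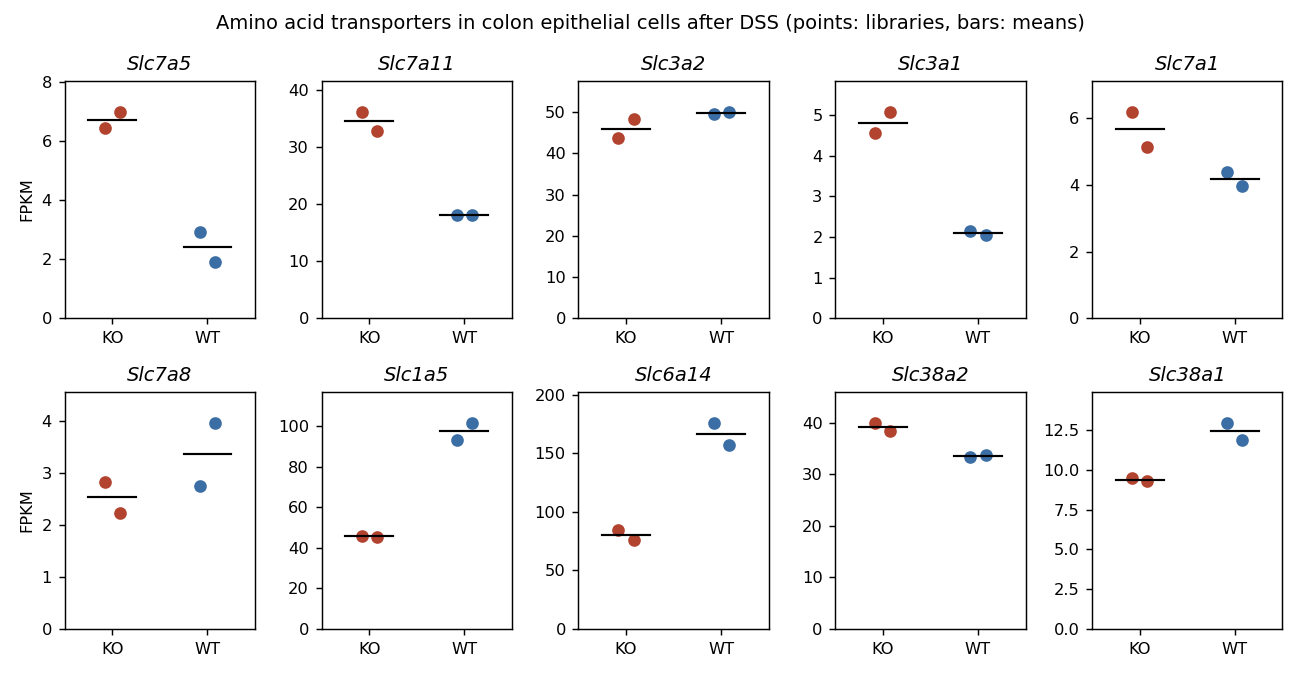
FPKM of the 10 transporter genes in each library, KO left and WT right. Points are libraries (n = 2 per genotype), bars are means, and each vertical axis starts at 0 with its own scale. Slc7a5, Slc7a11 and Slc3a1 lie higher in both KO libraries, Slc1a5 and Slc6a14 lower, and Slc7a8 overlaps between genotypes.

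The cystine carrier Slc7a11 and the leucine carrier Slc7a5 were higher in KO. Slc7a11 (xCT), the light chain that imports cystine in exchange for glutamate, had 36.2 and 32.9 FPKM in the KO libraries and 18.0 and 18.1 FPKM in the WT libraries. Its counts were 1830 and 1679 in KO and 850 and 887 in WT. Both KO values lay above both WT values, 2.05-fold higher by the fit (log2 fold change 1.04 ± 0.09, adjusted p = 2.73e-05). Slc7a5 (LAT1), the light chain that takes up leucine and other large neutral amino acids, had 123 and 135 counts in KO and 52 and 35 counts in WT. Its level was low, 6.71 ± 0.40 FPKM in KO and 2.41 ± 0.73 FPKM in WT (SD, n = 2 each), yet the groups did not overlap. Its log2 fold change of 1.59 ± 0.22 was the largest rise among the members (adjusted p = 0.000531). It was 1.92 without WT replicate 1 and 1.302 without WT replicate 2, past the threshold both times. T and NK cell markers and macrophage markers, whose cells can also express Slc7a5, moved the same way at the levels given above, and their part in the rise was not tested.

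Slc7a8 (LAT2), the other large neutral amino acid light chain, was not called. It had 63 and 50 counts in KO and 57 and 85 counts in WT, so the genotypes overlapped, with a log2 fold change of -0.30 and a 95% interval of -0.86 to 0.26. Within replicate number 1 its log2 ratio was 0.15 and within number 2 it was -0.72, so its direction differed between the replicate numbers. The level of Slc7a5 per Slc7a8, in FPKM, was 2.27 and 3.14 in KO and 1.06 and 0.48 in WT.

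The heavy chain Slc3a2, which all of these light chains need, showed no detectable difference. It had 43.8 and 48.3 FPKM in KO and 49.7 and 50.04 FPKM in WT, and its counts of 615 and 680 in KO overlapped the 650 and 678 in WT. The log2 fold change was -0.01 ± 0.09 (adjusted p = 0.917), with a 95% interval of -0.23 to 0.20. Its sign turned without KO replicate 1, to 0.04. Outside the 10, the Slc3a2 light chains Slc7a7 and Slc7a6 were higher, and Slc7a10, with 0 and 1 counts in KO and 2 and 3 counts in WT, was too low to test. Slc7a7 (y+LAT1), which exchanges cationic for neutral amino acids at the basolateral membrane, had 35.2 and 31.0 FPKM in KO and 19.9 and 17.7 FPKM in WT (log2 fold change 0.90 ± 0.12, adjusted p = 0.000316). Slc7a6 (y+LAT2), a like exchanger of wider tissue range, had 103 and 94 counts in KO and 23 and 46 counts in WT (log2 fold change 1.54 ± 0.28, adjusted p = 0.00226). Summed over these 6 light chains there were 1.96 and 1.61 FPKM of light chain per FPKM of Slc3a2 in KO and 0.91 and 0.88 in WT. These ratios compare transcripts per length and say nothing of protein or of which cells the transcripts came from.

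**Figure D3:**
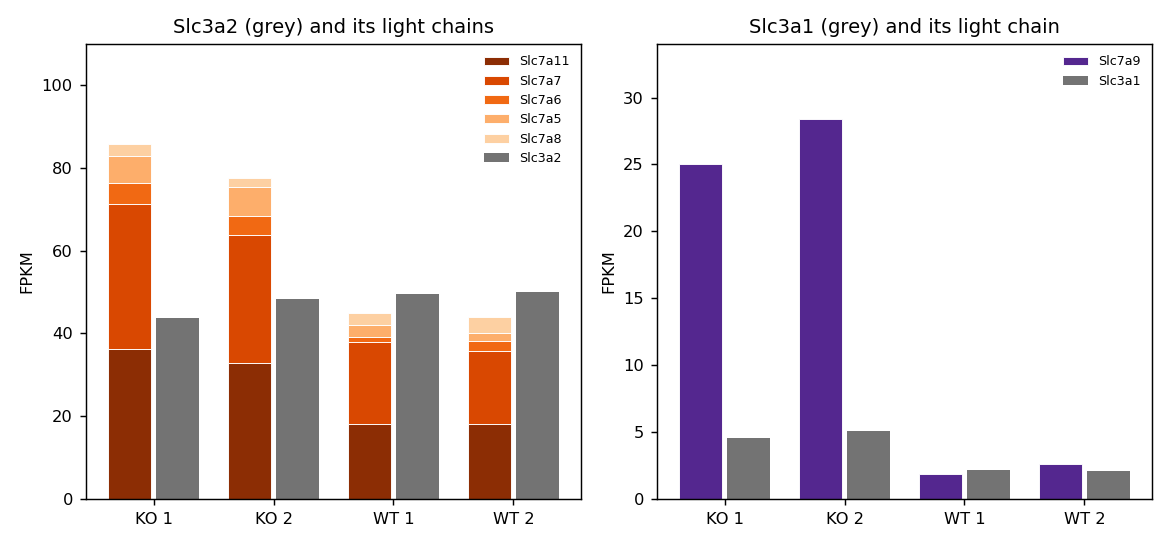
FPKM per library of heavy chains (grey) and their light chains (stacked colours), KO libraries left. In the left panel the light chains of Slc3a2 stand above the heavy chain in both KO libraries and below it in both WT libraries. In the right panel Slc7a9 reaches 25.04 and 28.41 FPKM in KO, against 1.87 and 2.61 FPKM in WT.

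The other heavy chain rose together with its light chain. Slc3a1 (rBAT), best known from kidney and small intestine, where it forms the cystine and cationic amino acid exchanger of the apical membrane, had 57 and 64 counts in KO and 25 and 25 counts in WT. This was 4.82 ± 0.37 FPKM in KO and 2.11 ± 0.06 FPKM in WT, with a log2 fold change of 1.29 ± 0.25 (adjusted p = 0.00291), or 0.85 (adjusted p = 0.00819) in limma on FPKM rescaled to equal totals. Slc7a9 (b0,+AT), its light chain, is outside the 10 but had the largest rise of any amino acid carrier tested. It had 232 and 268 counts in KO and 16 and 24 counts in WT, 12.6-fold higher (log2 fold change 3.66 ± 0.20, adjusted p = 2.19e-06). In WT the heavy and light chain were at like levels, 2.15 and 2.06 FPKM for Slc3a1 and 1.87 and 2.61 FPKM for Slc7a9, while in KO the light chain stood above the heavy chain in both libraries.

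The 2 most abundant members fell. Slc6a14 (ATB0,+), which brings neutral and cationic amino acids into colonocytes with sodium and chloride, had 84.6 and 76.0 FPKM in KO and 176 and 157 FPKM in WT. It was the most abundant of the 10 in both genotypes. Its counts were 1582 and 1433 in KO and 3069 and 2845 in WT, a log2 fold change of -0.95 ± 0.09 (adjusted p = 6.15e-05), and the log2 ratio was -0.95 within each replicate number. Slc1a5 (ASCT2), which exchanges glutamine for other neutral amino acids, had 46.0 and 45.3 FPKM in KO and 93.0 and 102 FPKM in WT. This was the largest fall among the members (log2 fold change -0.99 ± 0.09, adjusted p = 4.38e-05). It ranked 3 of 10 in KO, within the spread of Slc3a2, and 2 of 10 in WT. Together, Slc1a5 and Slc6a14 made up 45.8% ± 1.19 of the FPKM summed over the 10 members in KO and 67.7% ± 0.54 in WT (SD, n = 2 each). The sum over all 10 was 280 and 270 FPKM in KO and 395 and 384 FPKM in WT, and over the other 8 it was 149 and 148 FPKM in KO and 126.2 and 125.6 FPKM in WT. Slc1a5 and Slc6a14 kept both direction and call in every alternative run.

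The glutamine carriers of the Slc38 family changed little. Slc38a2 (SNAT2), a sodium-coupled importer of small neutral amino acids that amino acid shortage induces, had 40.02 and 38.49 FPKM in KO and 33.3 and 33.7 FPKM in WT. Its log2 fold change of 0.33 ± 0.09 passed (adjusted p = 0.0132), but not without WT replicate 1 or 2 (adjusted p = 0.0961 and 0.0569), nor with library totals alone (0.23, adjusted p = 0.0571), nor in the limma fits of FPKM (adjusted p = 0.0736 to 0.217). Slc38a1 (SNAT1), the next protein-coding gene to Slc38a2 in the RefSeq annotation, had 9.48 and 9.30 FPKM in KO and 13.0 and 11.9 FPKM in WT. It was lower with a log2 fold change of -0.30 ± 0.10 (adjusted p = 0.0315). That call was lost without any 1 of the 4 libraries and in DESeq2 (adjusted p = 0.135). It was also lost with no filter on low counts, and in limma with no filter or with quantile normalized FPKM.

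Slc7a1 (CAT1), the cationic amino acid carrier that supplies arginine and lysine, had 243 and 204 counts in KO and 161 and 151 counts in WT. Its level was 6.19 and 5.14 FPKM in KO and 4.4 and 3.98 FPKM in WT, so the groups did not overlap. The log2 fold change of 0.54 ± 0.14 passed (adjusted p = 0.013), but not without KO replicate 1 (0.40, adjusted p = 0.0633) or WT replicate 2 (0.47, adjusted p = 0.0646). It did not pass in 4 limma fits of FPKM (adjusted p = 0.0935 to 0.167). Slc7a2 (CAT2), a related carrier, was near the limit of detection with 18 and 14 counts in KO and 29 and 22 counts in WT, and was not called (adjusted p = 0.175).

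In order of mean level, the 10 ran Slc6a14, Slc3a2, Slc1a5, Slc38a2, Slc7a11, Slc38a1, Slc7a5, Slc7a1, Slc3a1 and Slc7a8 in KO. In WT they ran Slc6a14, Slc1a5, Slc3a2, Slc38a2, Slc7a11, Slc38a1, Slc7a1, Slc7a8, Slc7a5 and Slc3a1. In KO, Slc3a2 and Slc1a5 were the only neighbours in this order whose FPKM values overlapped. In WT, Slc7a1 lay just above Slc7a8 at 3.98 against 3.97 FPKM, and Slc7a8, Slc7a5 and Slc3a1 overlapped in turn. Among all genes tested, Slc7a5 stood at the 44.5th percentile of mean FPKM in KO and at the 19.3rd in WT, Slc7a11 at 82.2 and 68.5, and Slc6a14 at 91.9 and 96.7.

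The genes with the profile most like Slc7a5 over the 4 libraries, by Euclidean distance between centred log2 counts scaled to library size, were Clec4a3, a C-type lectin of myeloid cells, Ccl19, a chemokine for T and dendritic cells, and Def6, a T cell signalling protein. Their distances were 0.10, 0.11 and 0.14, and their log2 fold changes were 1.94, 1.56 and 1.68. Clec4a3 had only 14 and 17 counts in KO and 5 and 3 counts in WT, and its call was lost without KO replicate 1, KO replicate 2 or WT replicate 2 (adjusted p = 0.0682, 0.131 and 0.114) and in DESeq2 (adjusted p = 0.0917). In limma with a pseudocount of 1 the values were 0.97 to 1.14 for Clec4a3, and 1.07 for Def6 with rescaled totals. The nearest to Slc1a5 were Plce1, a phospholipase C, Rcor3, a corepressor, and Ap1ar, an adaptor regulator, at distances of 0.03, 0.05 and 0.05. With 4 libraries in 2 groups, likeness reflects mainly a like fold change.

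Other amino acid and peptide carriers changed in both directions. Of 53 on the list 49 were listed in the files and 29 could be tested, of which 8 were higher, 9 lower and 12 not called, 58.6% called against 43.7% of all genes. Their median log2 fold change was -0.07. The fall was largest in Slc15a1 (PepT1), the proton-coupled importer of dipeptides and tripeptides, with 18.1 and 20.6 FPKM in KO and 119 and 122 FPKM in WT (log2 fold change -2.54 ± 0.10, adjusted p = 3.64e-07). Slc36a1 (PAT1), which carries small amino acids with protons, had 35.3 and 37.4 FPKM in KO and 81.7 and 90.4 FPKM in WT (log2 fold change -1.14). Slc1a1 (EAAC1), the glutamate and cysteine importer, had 8.12 and 5.25 FPKM in KO and 18.5 and 16.8 FPKM in WT (log2 fold change -1.298). Ctns, which exports cystine from lysosomes, had 5.25 and 4.60 FPKM in KO and 14.6 and 15.6 FPKM in WT (log2 fold change -1.51). All of these falls had adjusted p-values of 0.000502 or less. Slc1a4 (ASCT1), a relative of Slc1a5, had 78 and 79 counts in KO and 52 and 49 counts in WT (log2 fold change 0.66, adjusted p = 0.0254), a call lost without any 1 library (adjusted p = 0.0514 to 0.131), in DESeq2 (adjusted p = 0.139) and in 4 limma fits of FPKM (0.36 to 0.54, adjusted p = 0.0663 to 0.105). Slc43a2 (LAT4) had a log2 fold change of 0.63 (adjusted p = 0.0152), a call lost without WT replicate 1 (0.47, adjusted p = 0.109), in DESeq2 (adjusted p = 0.0642) and in 4 limma fits of FPKM (0.33 to 0.51, adjusted p = 0.104 to 0.154). Slc6a19, the neutral amino acid carrier of the small intestine, had 2 and 5 counts in KO and 6 and 3 counts in WT, too few to test. Without WT replicate 1 the number of carriers called higher was 5, and in DESeq2 it was also 5.

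**Figure D4:**
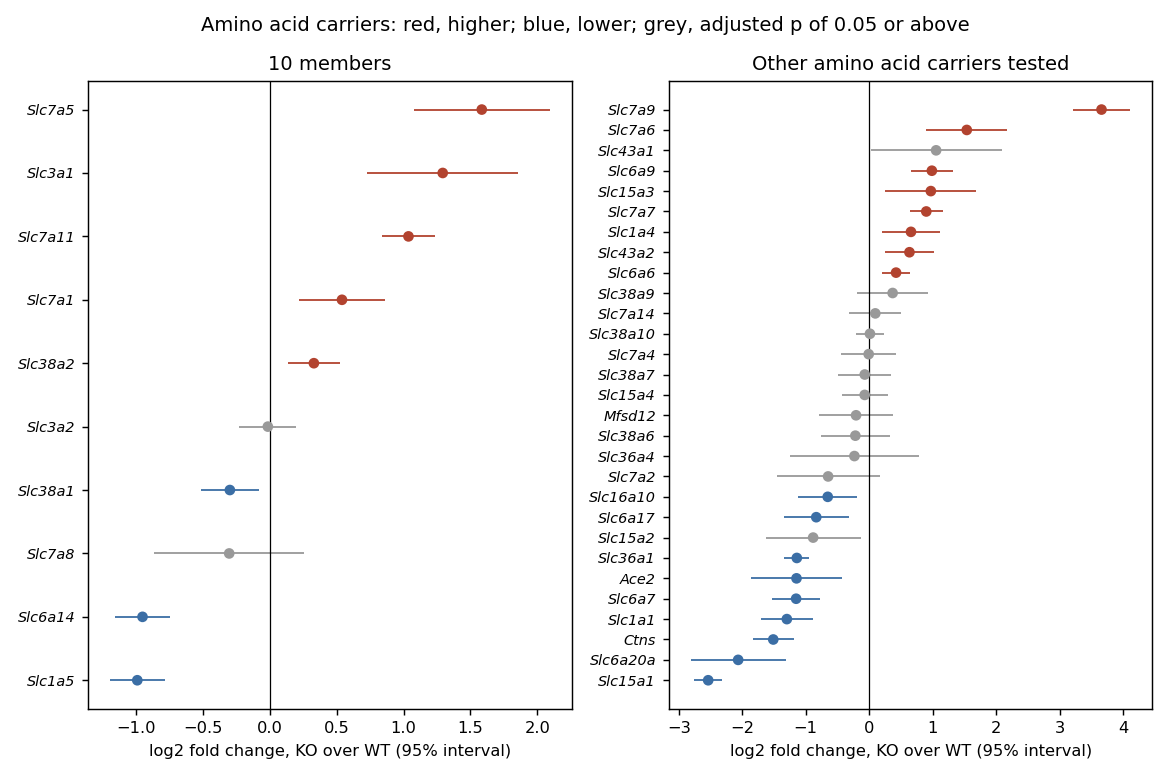
Log2 fold changes, KO over WT, of the 10 members and of the 29 other carriers tested, with 95% intervals of edgeR's fit that are not adjusted for multiple tests. Red is higher in KO, blue lower, grey not called, and the horizontal scales of the panels differ. Slc7a9 lies at 3.66 and Slc15a1 at -2.54, beyond the range of the members.

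More genes of the amino acid response rose than fell. Of 32 on the list 30 were tested, of which 16 rose, 4 fell and 10 were not called, 66.7% called against 43.7% of all genes, of which 23.0% were higher and 20.8% lower. The median log2 fold change of the list was 0.41, against -0.002 over all genes. Asns, the asparagine synthetase, had 42.0 and 32.5 FPKM in KO and 8.35 and 6.05 FPKM in WT (log2 fold change 2.47 ± 0.19, adjusted p = 1.33e-05). Chac1, which degrades glutathione, had 36 and 41 counts in KO and 6 and 3 counts in WT (log2 fold change 3.08 ± 0.43, adjusted p = 0.000472), or 1.78 to 1.93 in limma with a pseudocount of 1, which shrinks changes at such low levels. Phgdh, the first enzyme of serine synthesis, had 30.01 and 27.87 FPKM in KO and 7.01 and 8.38 FPKM in WT (log2 fold change 2.01 ± 0.14). Eif4ebp1, a repressor of translation initiation, and Nupr1, a stress-induced chromatin protein, had log2 fold changes of 1.498 and 1.034, both past the threshold. Atf4 had 113 and 112 FPKM in KO and 73.4 and 79.4 FPKM in WT, a smaller rise (log2 fold change 0.66 ± 0.09, adjusted p = 0.00045), and 0.39 with quantile normalized FPKM. Against that direction, Gpt2, a mitochondrial alanine aminotransferase, had 2.86 and 3.24 FPKM in KO and 11.2 and 10.2 FPKM in WT (log2 fold change -1.71), and Cth and Pck2 also fell. Eif2ak4, a kinase that senses uncharged tRNA, had a log2 fold change of -0.53 (adjusted p = 0.034), a call lost without any 1 library (adjusted p = 0.0574 to 0.186), in DESeq2 and in 2 limma fits. Ddit3 (CHOP), the stress-linked transcription factor, had 65 and 80 counts in KO and 95 and 87 counts in WT and was not called (log2 fold change -0.31, adjusted p = 0.227). Trib3 had 7 and 10 counts in KO and 3 and 3 counts in WT and was not tested.

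Genes that use the carried amino acids went in both directions on the cysteine side and on the glutamine side, with more rises than falls over the list. Of 29 genes of glutamine and cysteine metabolism 26 were tested, of which 14 rose and 6 fell, 76.9% called against 43.7% of all genes (23.0% higher and 20.8% lower). The median log2 fold change was 0.45, against -0.002 over all genes. On the cysteine side, Gclc, the catalytic subunit of the rate-limiting enzyme of glutathione synthesis, had 38.3 and 37.2 FPKM in KO and 21.0 and 20.3 FPKM in WT (log2 fold change 0.97 ± 0.09, adjusted p = 5.38e-05). Gsr, the glutathione reductase, had 104 and 89.8 FPKM in KO and 42.5 and 38.9 FPKM in WT (log2 fold change 1.35). Gss, Ggt1 and Ggct were also called higher (log2 fold change 0.65, 1.625 and 1.61), though the transcript lists of Ggt1 differ between the files. Gclm, the modifier subunit, had a log2 fold change of 0.53 (adjusted p = 0.0112), a call lost without KO replicate 1 (0.36, adjusted p = 0.0642) and in 4 limma fits (0.33 to 0.42, adjusted p = 0.0503 to 0.0957). Against that direction, Cbs, which feeds homocysteine towards cysteine, had 3.98 and 4.31 FPKM in KO and 11.2 and 13.1 FPKM in WT (log2 fold change -1.435, adjusted p = 0.000206). Oplah, the oxoprolinase of glutathione turnover, and Cdo1, which oxidises cysteine, were also lower (log2 fold change -1.036 and -0.76), the second not past the threshold without WT replicate 1 (-0.63, adjusted p = 0.0608). Nfe2l2 (NRF2), the regulator of antioxidant genes, was not called (log2 fold change -0.27, adjusted p = 0.0626), but was called lower without KO replicate 1 (-0.40, adjusted p = 0.0132) and in 6 of the other alternatives, and its transcript lists differ between the files. On the glutamine side, Glul, the glutamine synthetase, had 96.9 and 88.6 FPKM in KO and 229 and 228 FPKM in WT (log2 fold change -1.20 ± 0.08, adjusted p = 7.06e-06). Glud1 and Oat were also called lower (log2 fold change -0.54 and -0.97). Got1, the cytosolic aspartate aminotransferase, which interconverts glutamate and aspartate, had 74.3 and 76.2 FPKM in KO and 33.2 and 40.1 FPKM in WT (log2 fold change 1.14, adjusted p = 6.38e-05). Its mitochondrial counterpart Got2 had a log2 fold change of 0.42 (adjusted p = 0.0178), a call lost without KO replicate 1 (0.29) or WT replicate 2 (0.31), with library totals alone (0.32) and in the limma fits (0.23 to 0.32), at adjusted p-values of 0.0534 to 0.202. Nos2, the inducible nitric oxide synthase, which uses the arginine that Slc7a1 carries, had 137 and 140 FPKM in KO and 1.82 and 1.49 FPKM in WT. The transcript lists of Nos2 differ between the files, and the part of this in its values was not tested. Odc1, Arg2, Ass1, Bcat2 and Prodh were also called higher. Gfpt1, with Glul the most abundant of the list on the mean of both genotypes, was not called (log2 fold change 0.18, adjusted p = 0.122), but passed without KO replicate 2 (0.26, adjusted p = 0.0422).

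**Figure D5:**
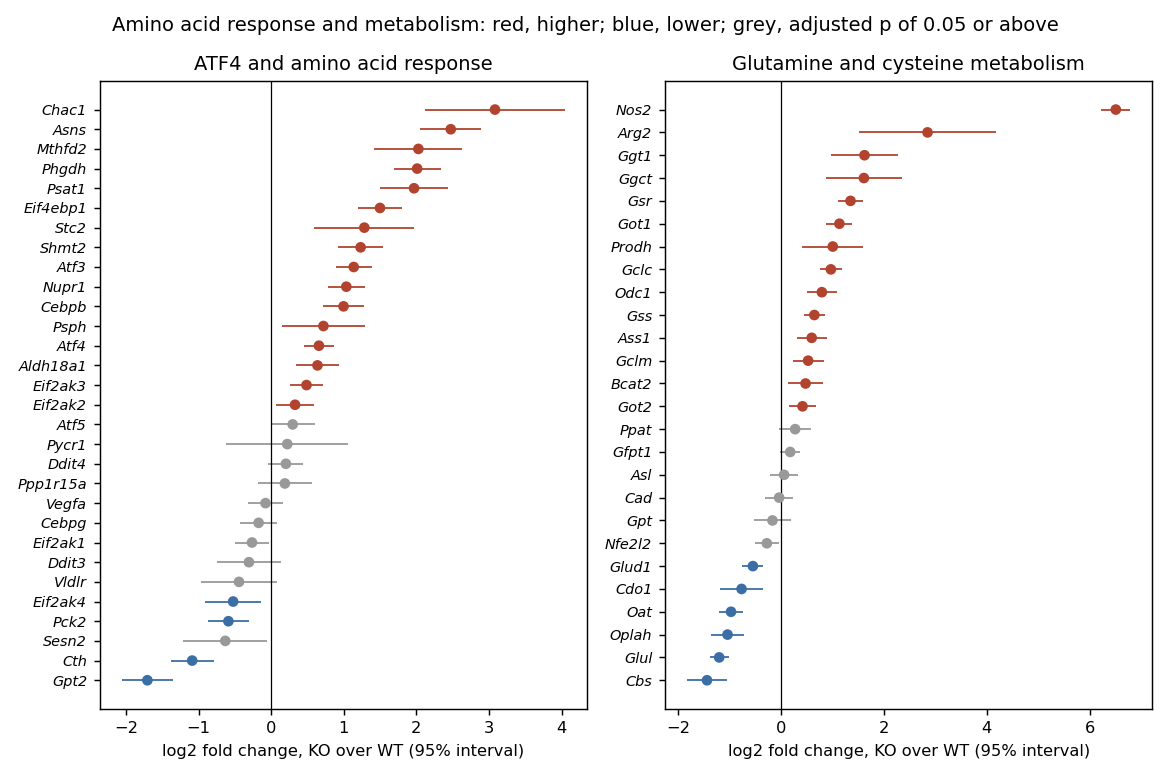
Log2 fold changes, KO over WT, with unadjusted 95% intervals, for tested genes of the amino acid response (left) and of glutamine and cysteine metabolism (right). Red is higher in KO, blue lower and grey not called. Chac1 and Asns lead the left panel at 3.08 and 2.47, and in the right panel Nos2 lies at 6.51 and Cbs at -1.435.

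Of 30 tested genes of amino acid sensing by mTORC1, the kinase complex that amino acids activate at the lysosome, 5 rose, 4 fell and 21 were not called. Over all genes 43.7% were called, and the difference from that share was not tested. The median log2 fold change was -0.10, against -0.002 over all genes. Lamtor1, the lysosomal anchor of the sensor, had 86.6 and 82.6 FPKM in KO and 65.5 and 65.0 FPKM in WT (log2 fold change 0.48 ± 0.09, adjusted p = 0.00287), and Sec13, of the GATOR2 complex and of secretory vesicles, rose by 0.61 on the log2 scale. Both kept their calls at smaller values in limma on quantile normalized FPKM (0.24 for Lamtor1 and 0.37 for Sec13), and Lamtor1 had 0.29 with rescaled totals. Flcn and Fnip2, partners in a complex that regulates the lysosomal GTPases, fell by 0.98 and 1.01. Lamtor2, the most abundant of the list, had 141 and 142 FPKM in KO and 138 and 127 FPKM in WT and was not called (adjusted p = 0.123).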

How the data were processed

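Libraries were grouped by the labels, 2 KO and 2 WT. Per the file headers, the authors deposited per library a length (unit other, not used in tests), an expected count, which is an estimated count that need not be whole, and an FPKM value. Bowtie2, BWA and hg19, a human build although the organism is mouse, appear in the submitters' processing notes, without role or version. Symbols came from the RefSeq mouse gene table (GRCm38.p6), which matched 99.72% of identifiers. Genes absent from a file were set to 0.

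Rounded counts were tested with edgeR 4.0.16 under R 4.3.3 (filterByExpr, TMM, glmQLFit, glmQLFTest, no block, two-sided, Benjamini-Hochberg over 13608 genes, threshold 0.05); standard errors are the size of the log2 fold change over the root of F. The fit was tested on simulated data. Alternatives used DESeq2 1.42.0 and limma 3.58.1 on log2(FPKM + 1), where a fold change understates the change of low genes. By chi-square, libraries of a genotype differed beyond counting noise (2.95 per degree of freedom in KO and 2.18 in WT) and were kept separate. All 10 members had the same transcripts in all files. Counts of Slc7a11, Slc3a2, Slc7a1 and Slc7a8 were not all whole, so some of their reads may be shared with other copies or genes. Files of replicate numbers 1 and 2 differ in annotation, so ratios within a number were also computed.

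Members and gene lists were chosen with earlier results of these data known. Named genes are the 10 members, 8 partner or like carriers, up to 4 called genes with the smallest p and the 2 most abundant of each pathway list, 8 genes by name, and the 3 nearest profiles to the members with the largest rise and fall. Cth, Pck2, Eif2ak4, Cbs, Oplah, Cdo1, Got1, Got2 and Slc7a10 were named after their values were seen. So were Gss, Ggt1, Ggct, Glud1, Oat, Odc1, Arg2, Ass1, Bcat2, Prodh, Atf3, Pycr1, Vldlr and Fgf21. A gene of the glutamine list and a marker gene are not reported here and were left out of their lists, though not of the fit.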

Additional observations from a re-analysis of the deposited data

How the results depend on the processing

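Slc7a5, Slc7a11, Slc3a1, Slc1a5 and Slc6a14 kept direction and call in every alternative, and the calls of Slc7a1, Slc38a2 and Slc38a1 were lost in some, as given with their values. With a library left out, 3 to 5 members were called higher and 2 lower, 5 to 7 other carriers higher and 6 to 10 lower, 14 to 15 amino acid response genes higher and 3 lower, and 2442 to 3053 genes of all higher. The member median was then 0.142 to 0.169. Members called higher numbered 3 in the limma fits of log2(FPKM + 1), log2(FPKM + 0.1), no filter and rescaled totals, where other carriers called higher numbered 4, and DESeq2 called 5 such carriers higher. Amino acid response genes called lower numbered 7 with rescaled totals, and genes called higher over all numbered 2008 with no filter in limma and 1958 with rescaled totals. The member median was 0.057 with library totals alone (all genes -0.103), 0.053 with limma with and without the filter, 0.055 with the small pseudocount, -0.024 with rescaled totals (all genes -0.144) and 0.027 quantile normalized, and 0.258 within replicate number 1. The cause was not tested. Signs turned for Slc3a2 with a library left out (-0.074 to 0.044, the highest without KO replicate 1) and within replicate number 2 (0.046), for Slc7a8 within number 1 (0.147), and with quantile normalized FPKM for Lamtor2 (-0.075) and Gfpt1 (-0.109). None of these was called.

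The labels give the genotypes the same replicate numbers but not what a number marks. Deviations of same-numbered libraries correlated at 0.647 over 10483 genes. These included genes whose transcript lists differ between the files, and the part of this in the correlation was not tested. With the replicate block, 5 members were called higher and 3 lower, 9 other carriers higher and 10 lower, 16 amino acid response genes higher and 6 lower, and 3855 genes higher and 3548 lower over all. Gfpt1 and Nfe2l2 were called with the block. The block spends a further degree of freedom on few libraries, and its adjusted p-values fell far below those without it. For Slc7a11 edgeR gave an adjusted p of 1.22e-54 with the block and 2.73e-05 without, so calls with the block carry little weight. Among low genes such as Slc7a2, Trib3 and Slc6a19, depth limits what can be seen.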
